A study of Mus musculus with 10 samples.

Results

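Expression of 10 genes that mark T cells was followed through the whole skin of 10 mice: the CD3 subunits Cd3d, Cd3e and Cd3g, the alpha beta receptor constant regions Trac and Trbc2, the gamma delta constant region Trdc, the delta variable segment Trdv4, the co-receptors Cd4 and Cd8a, and the regulatory T cell factor Foxp3. They were taken by name, through their Ensembl identifiers, as 10 of the 49671 gene identifiers counted, and all 10 were among the 18060 genes with enough reads to be tested. The comparison set the genes of the gamma delta T cells of the epidermis beside those of conventional and regulatory T cells, in 5 wildtype (WT) and 5 NPYtet mice.

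A T cell reads antigen through a receptor of either an alpha and a beta chain or a gamma and a delta chain. Both kinds need CD3 proteins, though not necessarily every subunit, to reach the cell surface and to signal. Mouse epidermis holds a resident gamma delta population, the dendritic epidermal T cells, whose receptors are nearly invariant and are built with the variable segments named Tcrg-V5 and Trdv4 in the annotation used here. The dermis holds alpha beta T cells, many of them Foxp3-positive regulatory cells near hair follicles, and further gamma delta cells, among them cells that pair Trdv4 with Tcrg-V6.

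The NPYtet mice were homozygous for the B6;129S4-Npytm2Rpa/J allele (NPY tet/tet), which raises neuropeptide Y, and the WT mice were their NPY +/+ littermates. All were 22 weeks old. By label, the WT group held 2 females (replicates 1 and 3) and 3 males (replicates 2, 4 and 5), and the NPYtet group 3 females (replicates 1, 3 and 4) and 2 males (replicates 2 and 5). Each library is 1 mouse's polyA RNA, sequenced as 75-base pairs, and whole skin mixes epidermis, dermis, follicles, fat and blood. In such bulk RNA fewer cells of a type and less RNA per cell cannot be told apart, and p-values here measure the spread between mice.

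Coordinates are on GRCm38, 1-based. Cd3g (chr9:44969572-44980431, minus strand) and Cd3d (chr9:44981786-44987339, plus strand) are neighbours, with Cd3e (chr9:44998740-45009627, minus strand) beside them. Trdv4 (chr14:54074905-54075515), Trdc (chr14:54142851-54148868) and Trac (chr14:54220521-54224206) lie in that order on the plus strand of 1 locus, since the delta genes are nested inside the alpha locus. Trbc2 (chr6:41546730-41548352, plus), Cd8a (chr6:71373427-71379173, plus) and Cd4 (chr6:124864692-124888221, minus) are on chromosome 6, and Foxp3 (chrX:7573644-7595245, plus) is on chromosome X.

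The 3′ ends of the Trdv4 and Tcrg-V5 segments are shown because these paired segments identify the epidermal receptor. They are written 5′ to 3′ on the plus strand from GENCODE M21 transcripts, at chr14:54075450-54075515 and chr13:19192658-19192725, and the capitals mark the tyrosine-tyrosine-cysteine codons that stand just before the junction of a rearranged receptor.
Trdv4: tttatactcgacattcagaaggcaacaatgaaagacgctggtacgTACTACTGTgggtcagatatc
Tcrg-V5: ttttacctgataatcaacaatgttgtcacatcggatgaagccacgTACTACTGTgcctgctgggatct
The 9 bases in capitals are the same in both segments, and none of the 75-base windows of either transcript was found in another gene's transcripts.

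The beta constant genes Trbc1 and Trbc2 are near-identical copies, which bears on every Trbc2 value. They differed at 23 of 518 coding bases compared (95.6% identity), and the first 259 bases were the same. The stretch below holds 12 of the differences, in capitals, from exons within chr6:41539119-41539305 and chr6:41547615-41547848, both on the plus strand with introns removed.
Trbc1: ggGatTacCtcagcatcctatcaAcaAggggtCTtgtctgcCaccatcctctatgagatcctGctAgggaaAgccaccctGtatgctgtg
Trbc2: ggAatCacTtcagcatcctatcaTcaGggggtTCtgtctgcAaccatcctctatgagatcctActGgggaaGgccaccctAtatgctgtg
Of the 75-base windows of the Trbc2 transcript, 37.7% also occur in Trbc1, so how the counting treats a read with more than 1 match sets part of the Trbc2 count. The corresponding share was 18.9% for Foxp3, which overlaps Flicr and Ccdc22, 4.35% for Trdc and 1.55% for Cd3e. It was 0 for Cd3d, Cd3g, Trac, Trdv4, Cd4 and Cd8a.

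Npy, the targeted gene, separated the groups as labelled: 0.0940 to 2.86 CPM (reads of a gene scaled to library size) in WT and 96.2 to 485 CPM in NPYtet (log2 fold change 7.45, SE 0.62, adjusted p 0.000109, edgeR). Libraries held 23209405 to 53357695 counted reads. Libraries WT 2, NPYtet 1 and NPYtet 5 stand apart. WT 2 and NPYtet 5 had 21144 and 19953 genes with a read, against 24710 to 26323 in the others, and mitochondrial genes took 9.26% of the reads of NPYtet 5, against 1.86% to 3.03% elsewhere. The factors that scale library size for CPM were 0.696 in WT 2 and 0.652 in NPYtet 5, against 0.898 to 1.21 in the others. A lower factor raises the CPM of a library. NPYtet 1 is labelled female, but Xist stood at 0.0492 CPM and the Y-linked Ddx3y at 37.2 CPM, as in libraries labelled male. Epidermal markers fitted the tissue label, with Krt14 at 1775 CPM or more in every library, and all 10 T cell genes had reads in every library.

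No difference between NPYtet and WT skin passed the test for any of the 10 T cell genes. Among them, 7 stood higher in NPYtet (Cd3d, Cd3g, Trac, Trbc2, Trdc, Trdv4 and Cd8a) and 3 lower (Cd3e, Cd4 and Foxp3), with log2 fold changes from -0.39 for Foxp3 to 0.84 for Trac, and the WT and NPYtet values overlapped for every gene, where 0.305% of all genes did not overlap. With edgeR's quasi-likelihood test and adjustment over all genes, 0 of 10 passed 0.05, where 0.00554% of all 18060 genes, which is Npy alone, did. At an unadjusted p under 0.05 the count was 0 of 10 beside 3.59% of all genes. That count was 3, all higher in NPYtet, without NPYtet 2 (6.72% of all genes) and 2, both higher, without WT 3 (5.59%). It was 1 with DESeq2 (5.39%), 1 with no filter (5.72%) and 0 in every other fit. After adjustment DESeq2 and limma voom also called 0 of 10. The median log2 fold change of the 10 was 0.38, beside -0.01 over all genes tested, and 48.8% of all genes stood higher in NPYtet. Without the 3 libraries that stand apart, 9 of 10 were positive with a median of 0.17. DESeq2 had 9 of 10 positive with a median of 0.41, and limma voom 10 of 10 with a median of 0.065.

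**Figure D1:**
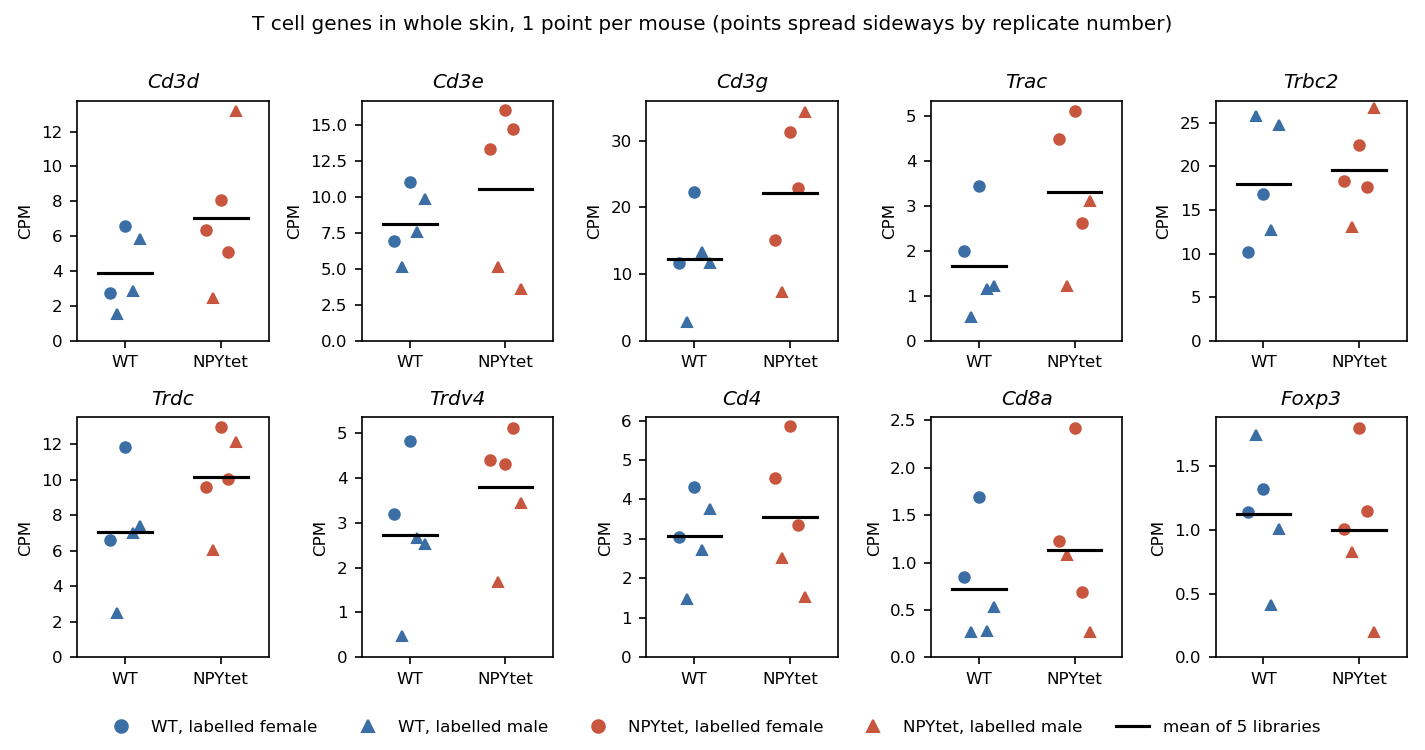
CPM of the 10 T cell genes in each library, by genotype, on linear axes that start at 0; circles are mice labelled female, triangles mice labelled male, and bars the mean of 5 libraries. The WT and NPYtet points overlap in every panel, and the NPYtet library at the top for Cd3d and Cd3g (13.2 and 34.3 CPM) is at the bottom for Cd3e (3.64 CPM).

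The CD3 subunits, which carry the receptor's signal inward, did not move as 1 group, and library NPYtet 5 decides much of their difference. Cd3e, the epsilon chain, was at 6.97, 5.13, 11.03, 7.60 and 9.85 CPM in WT replicates 1 to 5 and at 13.3, 5.12, 16.1, 14.7 and 3.64 CPM in NPYtet replicates 1 to 5. Its 3 highest values were NPYtet libraries labelled female and its lowest was NPYtet 5, and the log2 fold change was -0.03 (SE 0.39, adjusted p 0.999, edgeR). Without NPYtet 5 it was 0.28, and without WT 1 -0.34.

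Cd3d, the delta subunit of CD3 and not a receptor chain, stood at 2.74, 1.53, 6.56, 2.85 and 5.85 CPM in WT and at 6.34, 2.45, 8.09, 5.08 and 13.2 CPM in NPYtet. The 2 highest libraries were NPYtet 5 and 3 and the lowest was WT 2, with the groups overlapping. The log2 fold change was 0.83 (SE 0.49, adjusted p 0.999, edgeR), 0.16 without NPYtet 5 and 0.03 without the 3 libraries that stand apart. Without WT 3 it rose to 1.20. Cd3g, the gamma subunit of CD3, was at 11.6, 2.80, 22.2, 13.3 and 11.7 CPM in WT and at 15.1, 7.38, 31.3, 22.9 and 34.3 CPM in NPYtet. The same library was highest and the same library lowest. Its log2 fold change of 0.80 (SE 0.48, adjusted p 0.999, edgeR) was 0.18 without NPYtet 5, 0.16 without the 3 libraries and 1.09 without WT 3.

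Read ratios to Cd3e set NPYtet 5 apart. Reads of Cd3d per read of Cd3e ran from 0.299 to 0.595 in 9 libraries and reached 3.62 in NPYtet 5. Cd3g per Cd3e ran from 1.13 to 2.02 in 8 libraries, with 0.546 in WT 2 and 9.44 in NPYtet 5. Cd247, which encodes the zeta chain of the same complex, was at 0.573 to 0.857 reads per Cd3e read in those 8 libraries, 1.04 in WT 2 and 1.29 in NPYtet 5. The ratio of Cd3g to Cd3d did not set NPYtet 5 apart, at 2.61 inside a range of 1.83 in WT 2 to 4.67 in WT 4. NPYtet 5 thus held few reads of Cd3e, 55 against 97 to 696 in the other libraries. Its 199 reads of the neighbouring gene Cd3d and 519 of Cd3g lay inside the range of the others (29 to 351 and 53 to 1357). The CPM of these 2 genes, the highest of all libraries, were reached with a low scaling factor of 0.652. Cd247 was at 4.70 CPM, inside the range of the other libraries (4.39 to 10.6 CPM). The part of low library complexity or mitochondrial share in this was not tested.

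**Figure D2:**
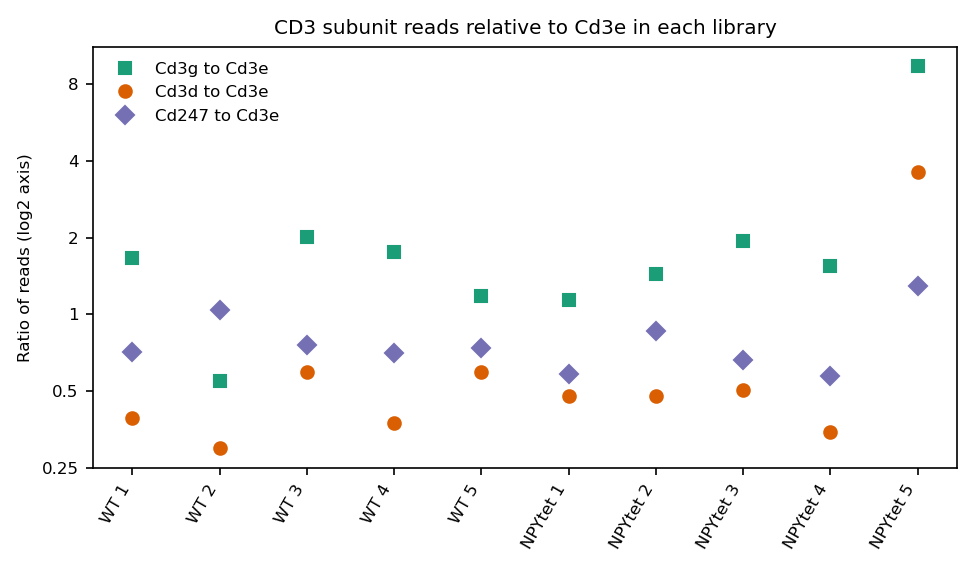
Reads of Cd3g, Cd3d and Cd247 divided by reads of Cd3e in each of the 10 libraries, on a log2 axis. NPYtet 5 lies at 9.44 for Cd3g and 3.62 for Cd3d, and the other 9 libraries stay at or under 2.02 and 0.595.

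The alpha beta receptor genes gave different pictures for the 2 chains. Trac, the alpha constant region, was at 1.99, 0.529, 3.43, 1.16 and 1.22 CPM in WT and at 4.48, 1.21, 5.10, 2.61 and 3.11 CPM in NPYtet. NPYtet 3 and 1 were highest and WT 2 was lowest, and 3 of the 5 WT libraries were near or under NPYtet 2. Its log2 fold change of 0.84 (SE 0.42) had the smallest p of the 10 genes, 0.0652 before and 0.999 after adjustment (edgeR). It was 0.50 without NPYtet 5, 0.34 without the 3 libraries and 1.08 without WT 3. DESeq2 gave 0.86 with an unadjusted p of 0.0361 and an adjusted p of 0.840.

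Trbc2, a beta constant region, was at 10.2, 25.7, 16.8, 12.7 and 24.8 CPM in WT and at 18.3, 13.0, 22.5, 17.7 and 26.7 CPM in NPYtet. In CPM, WT 2, the lowest library for Trac, Trdc and Cd3g, was the second highest for Trbc2, and NPYtet 5 was the highest. These are the 2 libraries with the lowest scaling factors, 0.696 and 0.652. Before scaling they held 487 and 403 Trbc2 reads, against 394 to 975 in the others. The log2 fold change was 0.22 (SE 0.34, adjusted p 0.999, edgeR), and ran from 0.027 without WT 1 to 0.46 without NPYtet 2. Trbc1, the copy, was at 3.94 to 11.1 CPM over the 10 libraries with a log2 fold change of -0.04 (SE 0.35, adjusted p 0.999, edgeR). Reads of Trbc2 per read of Trbc1 were 1.99 to 3.57 in 8 libraries but 6.01 in WT 2 and 6.30 in NPYtet 5, the libraries with fewest genes detected. Reads of Trbc2 per read of Trac ran from 4.09 in NPYtet 1 to 20.4 in WT 5, with 48.7 in WT 2.

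Alpha beta variable segments were spread thinly. The 128 alpha V segments together held 161 reads over 10 libraries, on 52 segments, and the 35 beta V segments held 417 reads on 19 segments. The alpha count includes segments named for both the alpha and the delta chain, among them the most read, Trav14d-3-dv8, with 12 reads. The most read beta segment, Trbv13-2, took 62 of these, 14.9%.

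Trdv4 and Tcrg-V5, the segments of the epidermal receptor, were the most read delta and gamma variable segments in both genotypes, Trdv4 being shared with cells that use Tcrg-V6. Trdv4 took 1277 of the 1314 reads on delta V segments, 97.2% (95% Wilson interval 96.1% to 97.95%). Delta V here means segments whose name starts with Trdv. Segments named for both chains, such as Trav14d-3-dv8, were counted with the alpha V segments, which held 161 reads in all. The share was 97.5% (583 of 598) in WT and 96.9% (694 of 716) in NPYtet, and 93.5% to 100% in single libraries, the smallest of which, WT 2, had 9 such reads. Intervals on read shares cover counting error only. On the gamma side, Tcrg-V5 took 626 of 1039 V reads, 60.3% (95% Wilson interval 57.2% to 63.2%), with 60.3% in WT and 60.2% in NPYtet. Its share ran from 49.2% in WT 5 and NPYtet 3 to 82.2% in NPYtet 5. Next came Trgv2 with 21.1% and Tcrg-V6, used by interleukin 17-producing cells of the dermis, with 9.53%, and Tcrg-V4, used by dermal and lymphoid gamma delta cells, had 3.37%. Il17a, the gene of that cytokine, had 0 reads in all 10 libraries, and a count of 0 allows up to 3 reads in each.

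**Figure D3:**
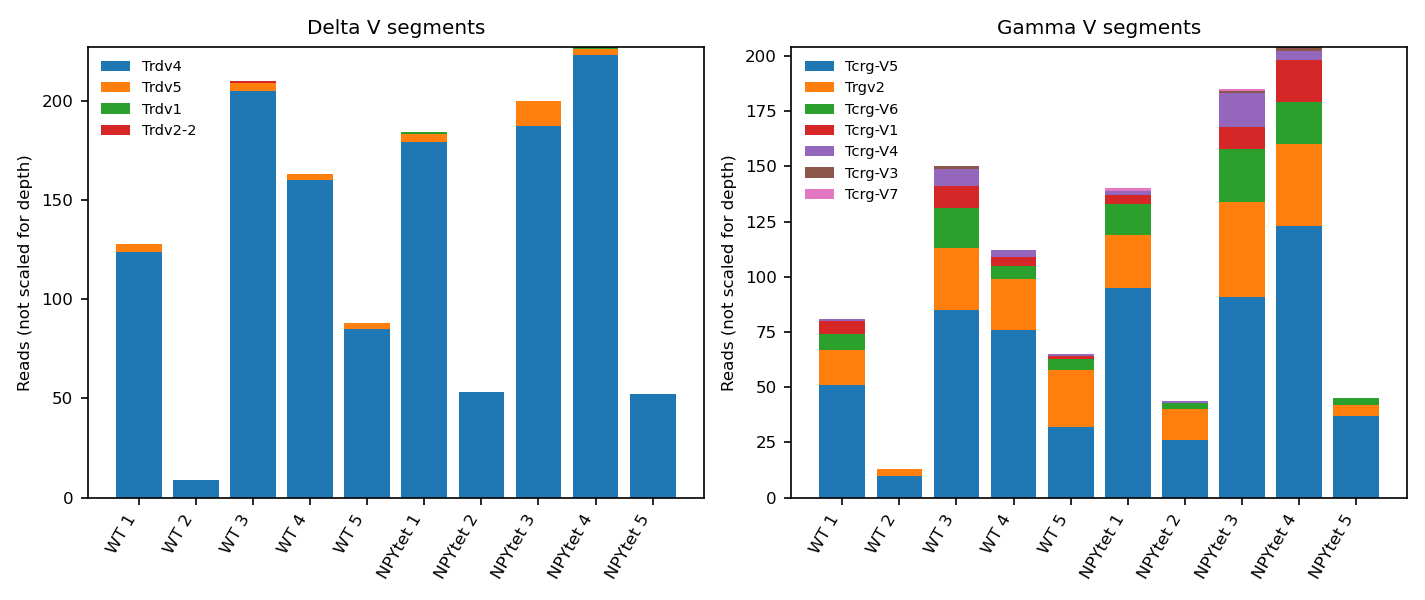
Reads on each delta (left, names that start with Trdv only) and gamma (right) variable segment per library, stacked, not scaled for depth. Trdv4 fills nearly all of every delta bar and Tcrg-V5 is the largest part of every gamma bar, and WT 2 has 9 delta and 13 gamma reads in all.

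Trdc, the delta constant region, was at 6.58, 2.49, 11.9, 7.00 and 7.42 CPM in WT and at 9.59, 6.08, 13.0, 10.03 and 12.1 CPM in NPYtet. WT 2 was the lowest, WT 3 lay inside the NPYtet range and the remaining WT libraries lay between NPYtet 2 and the other NPYtet libraries. The log2 fold change was 0.46 (SE 0.37, adjusted p 0.999, edgeR), 0.21 without NPYtet 5, 0.27 without WT 2 and 0.69 without WT 3. Trdv4 was at 3.20, 0.476, 4.82, 2.65 and 2.52 CPM in WT and at 4.40, 1.69, 4.31, 5.11 and 3.44 CPM in NPYtet. NPYtet 4 was highest, WT 3 second and WT 2 lowest, and the log2 fold change was 0.31 (SE 0.45, adjusted p 0.999, edgeR). It was 0.10 without WT 2, 0.08 without NPYtet 5, 0.46 without WT 3 and -0.07 without the 3 libraries.

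The gamma chain gave values close to those of Trdc. Tcrg-V5 stood at 0.529 to 1.998 CPM in WT and 0.827 to 2.82 CPM in NPYtet (log2 fold change 0.67, SE 0.42, adjusted p 0.999, edgeR). Tcrg-C1, the constant region joined to it, stood at 2.49 to 9.76 CPM in WT and 3.63 to 14.7 CPM in NPYtet (0.60, SE 0.42, adjusted p 0.999, edgeR). Without NPYtet 5 these values were 0.31 for Tcrg-V5 and 0.28 for Tcrg-C1. Without NPYtet 2 they were 0.87 for Tcrg-V5 and 0.83 for Tcrg-C1. Tcrg-C1 held 64.4% of the gamma constant reads, with 17.6% of its windows shared with Tcrg-C2 or Tcrg-C3.

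The co-receptors and Foxp3 were the least abundant of the 10 genes per kilobase of annotated exon. Cd4, the co-receptor of helper and regulatory cells, which macrophages and dendritic cells can also express, was at 3.05, 1.48, 4.33, 2.71 and 3.77 CPM in WT and at 4.55, 2.51, 5.86, 3.37 and 1.52 CPM in NPYtet. WT 2 and NPYtet 5 were lowest and NPYtet 3 highest, and the log2 fold change was -0.03 (SE 0.40, adjusted p 0.999, edgeR). Cd8a, the co-receptor of cytotoxic cells and a marker of some dendritic cells, was at 0.852, 0.264, 1.69, 0.281 and 0.534 CPM in WT and at 1.23, 1.08, 2.42, 0.687 and 0.265 CPM in NPYtet. Its log2 fold change of 0.54 (SE 0.52, adjusted p 0.999, edgeR) was 0.004 without NPYtet 2 and 0.87 without WT 3. Cd8b1, which is more restricted to T cells, stood at 0 to 0.635 CPM in WT and 0.350 to 1.25 CPM in NPYtet (0.79, SE 0.65, adjusted p 0.999, edgeR).

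Foxp3, which fixes the regulatory T cell programme, was at 1.14, 1.74, 1.32, 0.414 and 1.01 CPM in WT and at 1.01, 0.827, 1.80, 1.14 and 0.199 CPM in NPYtet. The highest values were NPYtet 3 and WT 2 and the lowest was NPYtet 5. The log2 fold change was -0.39 (SE 0.53, adjusted p 0.999, edgeR), -0.03 without NPYtet 5, -0.58 without NPYtet 3 and 0.27 without the 3 libraries. The regulatory T cell genes Il2ra and Ctla4 did not follow Foxp3 in WT 2: Il2ra was at 0.317 CPM and Ctla4 at 0.476 CPM there, the lowest WT values of both, and Ctla4 had 0 reads in NPYtet 5. Foxp3 reads per Cd4 read were 0.130 to 0.373 in 9 libraries and 1.18 in WT 2.

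Ratios taken within a library set one T cell class against another in the same piece of skin. No difference between genotypes passed for any of 4 such ratios in a two-sided exact permutation test over all divisions of the 10 libraries into 5 and 5, where the smallest possible p is 0.00794. The log2 ratio of Trdc to Trac, gamma delta against alpha beta, was 2.14 ± 0.41 (SD, n = 5) in WT and 1.71 ± 0.49 in NPYtet, a difference of -0.42 (exact permutation p 0.159, adjusted over the 4 ratios 0.349). Its WT values ran from 1.70 to 2.56 and its NPYtet values from 1.09 to 2.28, and the 2 lowest were NPYtet 1 and 3. The permutation test has no sex term, and the labelled sexes were not balanced between the genotypes. This ratio ran from 1.09 to 1.92 in mice labelled female and from 1.94 to 2.56 in mice labelled male. NPYtet 1, at 1.09, is the library whose label goes against Xist and Ddx3y. The part of sex in the genotype difference was not tested. Foxp3 to Cd3e was -2.87 ± 0.92 in WT and -3.36 ± 0.53 in NPYtet (difference -0.49, exact permutation p 0.349), with WT 2 highest at -1.53, and without the 3 libraries the difference was 0.11. Cd8a to Cd4 was -2.22 ± 0.69 in WT and -1.76 ± 0.52 in NPYtet (difference 0.47, exact permutation p 0.262). Cd3e to Ptprc, the gene of the CD45 antigen on all leukocytes, was -1.43 ± 1.19 in WT and -2.02 ± 0.54 in NPYtet (difference -0.59, exact permutation p 0.333). Each had an adjusted p of 0.349. The difference in Cd3e to Ptprc was -0.23 without WT 5 and -0.35 without WT 2, that in Cd8a to Cd4 was 0.26 without WT 4, that in Trdc to Trac was -0.27 without NPYtet 1, and that in Foxp3 to Cd3e was -0.16 without WT 2. Other left-out libraries gave larger differences. Without WT 3 they were -0.88 for Cd3e to Ptprc and 0.69 for Cd8a to Cd4. Trdc to Trac reached -0.57 without NPYtet 2, and Foxp3 to Cd3e -0.78 without WT 4.

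**Figure D4:**
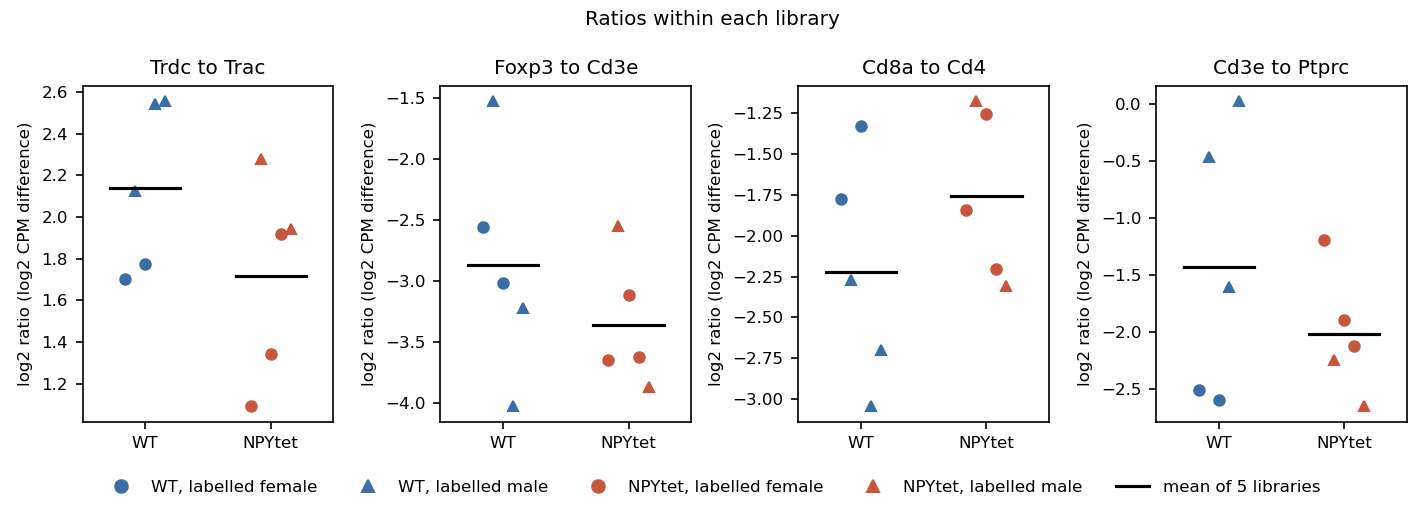
The 4 within-library log2 CPM ratios by genotype, 1 point per mouse, with circles for mice labelled female, triangles for mice labelled male and a bar for the mean of 5. Every ratio overlaps between WT and NPYtet, and the axes do not start at 0.

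Levels between genes can be compared only per length, here as CPM per kilobase of annotated exon, mean ± SD over all 10 libraries. Trbc2 was highest at 27.2 ± 8.48, then Trdv4 at 7.35 ± 3.31, Cd3g at 5.28 ± 3.12, Cd3d at 3.01 ± 1.90, Trac at 2.66 ± 1.64, Cd3e at 2.29 ± 1.06, Trdc at 2.23 ± 0.850, Cd4 at 0.822 ± 0.340, Cd8a at 0.256 ± 0.193 and Foxp3 at 0.232 ± 0.111. Trbc2 exceeded Trdv4, Cd3g exceeded Cd3d, Trdc exceeded Cd4 and Cd4 exceeded Cd8a in 10 of 10 libraries, and Trdv4 exceeded Cd3g in 9. The order within Cd3d, Trac, Cd3e and Trdc was not settled, as each was above the next in 6 or 7 of 10 libraries, and Cd8a was above Foxp3 in 5 of 10. Annotated exon length need not be the length expressed, which weighs most on Trdc, whose annotated exons sum to 3865 bases, beside 935 for Trac.

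Log2 differences between mice labelled male and mice labelled female were negative, lower in males, for 9 of the 10 genes, all but Trbc2, where 46.2% of all genes stood higher in males. With total-count scaling all 10 were negative, Trbc2 at -0.17. After adjustment 0 of 10 passed the edgeR test, where 2.48% of all genes did. The median log2 difference, male minus female, was -0.78, beside -0.07 over all genes tested. At an unadjusted p under 0.05, 4 of 10 were lower, where 11.5% of all genes were lower and 24.6% differed in either direction. These were Cd8a at -1.42 (SE 0.52, p 0.0162), Trac at -1.20 (SE 0.42, p 0.0133), Cd3e at -0.99 (SE 0.39, p 0.0236) and Trdv4 at -0.96 (SE 0.45, p 0.0487, all from edgeR, adjusted p 0.116 to 0.200). All 10 genes overlapped between the labelled sexes, where 8.44% of all genes did not.

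Cd3e stood at 6.97 to 16.1 CPM in the 5 mice labelled female and 3.64 to 9.85 CPM in the 5 labelled male. Trac stood at 1.99 to 5.10 and 0.529 to 3.11 CPM in these groups. Other leukocyte lists were mostly negative or mixed. Ptprc was lower in mice labelled male (log2 difference -1.56, adjusted p 0.0455, edgeR), but only 4 of the 7 all-leukocyte markers were negative (median -0.05). Differences were negative for 10 of 10 dendritic and Langerhans markers, which include Cd4 and Cd8a (-1.08, 5 with an unadjusted p under 0.05). So were those of 6 of 7 B cell markers (-0.95) and 4 of 4 lymph node markers (-1.36, 2 called by edgeR). Macrophage markers had 4 of 8 negative (-0.17). Circulating T cell genes had 3 of 9 negative (0.14), with Ccr7 called higher by edgeR (2.34, adjusted p 0.0457). The part of other cells in the T cell values was not tested. WT 2 and NPYtet 5 are both labelled male. Without them and NPYtet 1, whose label goes against Xist and Ddx3y, 9 of 10 genes were again lower and 3 had an unadjusted p under 0.05, where 28% of all genes did. Without NPYtet 1 alone the count was also 3, where 24.4% of all genes did. It was 1 without WT 3 (16.4% of all genes), 2 without NPYtet 2 (23.8%) or without NPYtet 3 (18.2%), and 6 with total-count scaling (25.1%). Without NPYtet 4 it was 3, without WT 1, WT 2, WT 4 or NPYtet 5 it was 4, and without WT 5 it was 5. In these fits 17.4% to 34.1% of all genes had such a p in either direction. With the hair gene score as a covariate the count was 0, where 10.3% of all genes did, with a median of -0.43. That score ran from -6.16 to 3.73 in mice labelled female and from 0.0477 to 3.81 in mice labelled male. Hair genes and labelled sex therefore cannot be fully told apart in this fit. The calls depended on the tool: DESeq2 called Trac (-1.15, adjusted p 0.0456), where it called 12.8% of all genes, and limma voom called Cd3e, Cd3g, Trac and Trdv4 (adjusted p 0.0168 to 0.0465), where it called 31% of all genes. With the replicate number as a block, 7 of 10 were lower and none had an unadjusted p under 0.05, where 0.997% of all genes did. Only number 4 holds both labelled sexes, so the sex term there rests on WT 4 and NPYtet 4. SEs of the 10 genes were 1.03 to 1.56 in that fit, which cannot decide the sex difference.

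**Figure D5:**
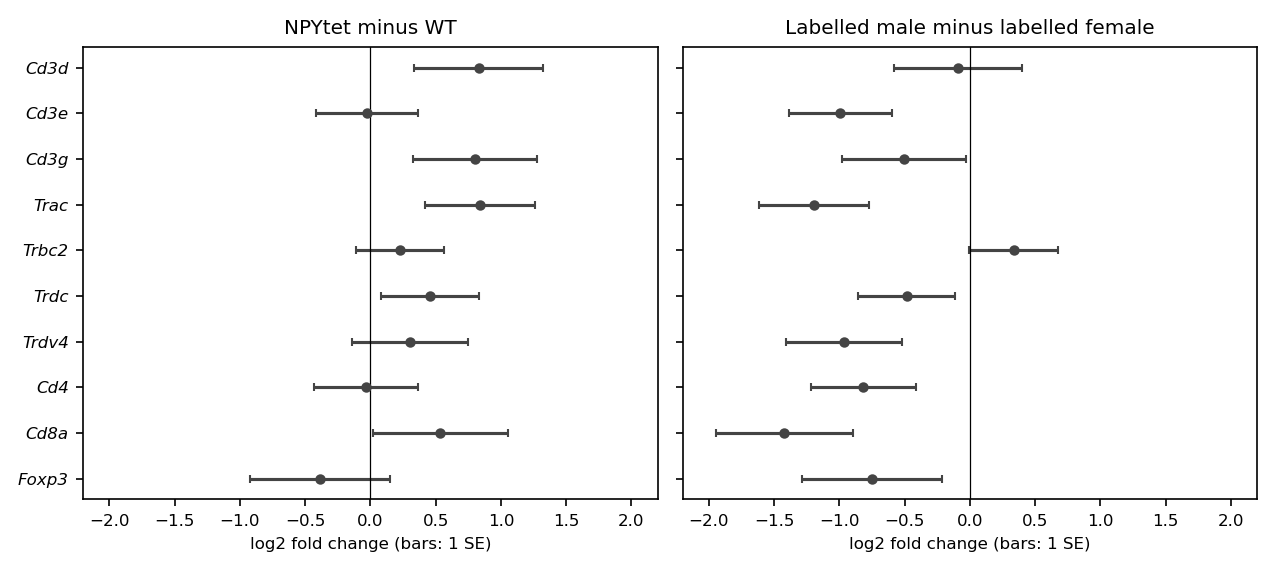
edgeR log2 fold changes of the 10 genes, NPYtet minus WT on the left and labelled male minus labelled female on the right, with bars of 1 SE. The genotype values run from -0.39 to 0.84, and on the right all but Trbc2 lie under 0.

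The genotype difference was not shown to depend on sex. For the interaction, 0 of 10 genes passed after adjustment, beside 0% of all genes, and 1 of 10 had an unadjusted p under 0.05, where 1.63% of all genes did. That gene was Cd3e, whose log2 difference between NPYtet and WT was 1.49 smaller in males (interaction -1.49, SE 0.67, p 0.0435, adjusted p 0.9999, edgeR). In NPYtet skin Cd3e was 13.3, 16.1 and 14.7 CPM in mice labelled female and 5.12 and 3.64 CPM in mice labelled male, while in WT skin the females (6.97 and 11.03 CPM) and males (5.13, 7.60 and 9.85 CPM) overlapped. NPYtet 1, at 13.3 CPM, is the library whose label goes against Xist and Ddx3y. The unadjusted edgeR p of the interaction was 0.0633 without NPYtet 1, 0.134 with the hair score and 0.147 with the replicate block. It was 0.0133 without WT 2, 0.0413 without WT 4, and 0.0857 to 0.111 without WT 5, NPYtet 3 or NPYtet 4. DESeq2 gave an unadjusted p of 0.0289 and limma voom 0.0216. Some fits leave 1 mouse in a genotype and sex group. These gave interactions of -1.19 without WT 1, -1.86 without WT 3 and -1.77 without NPYtet 2. They also gave -1.29 without NPYtet 5 and -1.51 without the 3 libraries.

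Across the 10 libraries the members fell into patterns that are given as a description, as the points share depth and composition. Trdc followed Cd3g (Pearson r of log2 CPM 0.97), Trdv4 (0.94) and Trac (0.90), and Cd3e followed Cd4 (0.90). Cd3d and Cd3e reached 0.28, Trbc2 and Trac 0.04, and Foxp3 and Trdc -0.25. Over the 7 libraries left without the 3 that stand apart these last were 0.89, 0.34 and 0.68. Among 13904 genes the nearest to Trdc were Dpysl2 (0.98), Prkcb (0.98), Gstk1 (0.98), Klrb1b (0.97) and Rdh14 (0.97). Nearest to Cd3e were Lpcat2 (0.98), Il20rb (0.97), Pou2f3 (0.96), Neu3 (0.96) and Abcc5 (0.95), and nearest to Foxp3 were Dennd1c (0.95), Prkcz (0.95), Eno2 (0.94), Ptpn6 (0.93) and Pgm1 (0.93).

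Lists of genes of the same cells gave no call by genotype, and their counts of positive log2 fold changes are given beside the 48.8% of all genes. Several lists hold members themselves, so their counts partly repeat the values above. The receptor complex list holds Cd3d, Cd3e, Cd3g, Trac, Trbc2 and Trdc. The alpha beta list holds Trac, Trbc2, Cd4 and Cd8a, and the gamma delta list Trdc and Trdv4. Foxp3 is in the regulatory list, Cd8a in the CD8 list, and Cd4 and Cd8a in the dendritic list. Of 11 T cell receptor complex genes 9 were positive (median 0.46), of 24 T cell signalling genes 15 (0.13), of 16 alpha beta T cell genes 11 (0.28) and of 15 tested gamma delta T cell genes 9 (0.08). In signalling, Trat1, an adaptor of the receptor complex, had the largest value at 1.19 (SE 0.56, adjusted p 0.999, edgeR), with NPYtet 5 at 7.94 CPM above all others. Of the 16 alpha beta genes, Lef1 and Tcf7, transcription factors also active in hair follicles, had the smallest p: Lef1 stood at 3.55 to 53.2 CPM in WT and 1.35 to 4.23 CPM in NPYtet (-3.13, SE 0.73, adjusted p 0.833, edgeR).

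The list of epidermal residence and sensing genes had 14 of 19 positive (0.39). Its largest value was that of Ctla2a, a cathepsin inhibitor, at 1.85 (SE 0.60, unadjusted p 0.0081, adjusted p 0.999, edgeR), with 524 CPM in NPYtet 5 against 16.8 to 56.8 CPM elsewhere. In the same list Itgae, the integrin that binds E-cadherin, was at -0.36 (SE 0.48), and Klrk1, the NKG2D receptor, at 0.60 (SE 0.42, both adjusted p 0.999, edgeR). Keratinocyte partners had 11 of 13 positive (0.56), among them Il15, a survival cytokine of these cells, at 0.52 (SE 0.37) and Skint1, which selects the epidermal gamma delta cells, at 0.87 (SE 0.44, both adjusted p 0.999, edgeR). NPYtet 5 held 54.7 CPM of Skint1, against 7.40 to 24.7 CPM elsewhere, and without it the value was 0.10. Leaving out WT 3 gave 1.27. Regulatory T cell genes had 6 of 18 positive (-0.08), CD8 and cytotoxic genes 10 of 12 (0.41), T helper factors and cytokines 9 of 13 (0.05) and circulating T cell genes 5 of 9 (0.16).

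Markers of other cells were summed in each library. B cell markers had 7 of 7 positive (median 0.78) and summed to 4.12 to 7.76 CPM in WT and 5.85 to 17.8 CPM in NPYtet. Dendritic and Langerhans markers had 7 of 10 positive (0.14; 31.4 to 162 CPM in WT, 75.7 to 180 in NPYtet), macrophage markers 6 of 8 (0.05; 413 to 1401 and 946 to 1410 CPM), mast cell markers 4 of 6 (0.18; 110.1 to 182 and 135 to 224 CPM) and all-leukocyte markers 5 of 7 (0.39; 193 to 558 and 386 to 716 CPM). Lymph node markers had 3 of 4 positive (0.41), summing to 5.58 to 12.6 CPM in WT and 8.78 to 18.7 CPM in NPYtet, with Glycam1, Madcam1 and Cr2 at 0 in at least 1 library each. Of the NK and innate lymphoid markers, Ncr1 and the Klra genes were at 0.917 CPM or less in every library and 1 of 2 tested was positive (0.21; sums of 98.3 to 251.55 and 147 to 286 CPM, mostly Gata3). Epidermis markers had 3 of 8 positive (-0.07; 11810 to 64414 and 20107 to 42708 CPM). Growing hair genes had 0 of 21 positive (median -4.14; 360 to 30358 CPM in WT and 57.8 to 16487 CPM in NPYtet). With a score of these hair genes as a covariate, 7 of the 10 T cell genes were positive, with a median of 0.21 and 0 called by edgeR. The score ran from -2.74 to 3.81 in WT and from -6.16 to 3.02 in NPYtet. Hair genes and genotype therefore cannot be fully told apart in this fit.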

How the data were processed

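Whole-skin polyA RNA was measured in 5 WT and 5 NPYtet mice. The deposited values are gene read counts, 1 table per library with the same 49671 gene identifiers. Per the submitters' processing notes, the build was mm10 and the tools included STAR 2.5.2 and Trimmomatic 0.36, besides bcl2fastq, DESeq2 1.30.1 and FastQC 0.11.8. For the deposited counts, strand setting and annotation release were not given in the sources used here, so overlapping or antisense genes may share reads. The tables held no row without a gene identifier. GENCODE M21 named 49412 identifiers and gave lengths and sequences.

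Depth ran from 23209405 to 53357695 counted reads. Genes were kept by filterByExpr in edgeR 4.0.16 (minimum count 10, minimum total 15, R 4.3.3), which left 18060, and CPM were TMM-scaled. Genotype and the labelled sex were fitted together with edgeR's quasi-likelihood test, and the interaction as 4 genotype and sex groups, with p-values adjusted over all genes by Benjamini-Hochberg and a threshold of 0.05. Ratios used log2 CPM with a prior count of 2 and an exact permutation test without a sex term. The script was tested on simulated data. No pair of libraries agreed within sampling noise by chi-square, and each was counted as 1 sample.

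The 10 genes, the 19 lists and the 3 libraries left out together were chosen with earlier results of these data known. Beside the 10 genes, the genes named were drawn from a fixed set of T cell genes, the 2 with the smallest p in each list, and the 5 nearest in pattern to Cd3e, Trdc and Foxp3 among genes of mean CPM of at least 1. A few other list genes were singled out after their values were seen. Ccl21a and Krt85 found no match. Alternatives were RLE or total-count scaling, no filter, a minimum count of 50, DESeq2 1.42.0, limma 3.58.1 voom with quality weights, no sex term, a replicate block, a hair gene score, a prior count of 0.5, and leaving out libraries. Replicate numbers were not taken to pair the mice.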

Additional observations from a re-analysis of the deposited data

Results flagged for a closer look

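Of 48 groups of 5 libraries tested, 4 held a library farther from its neighbours than Dixon's critical value for 5 samples, 0.71 of the range. Chance alone would do this in about 1 group in 20. All 4 are ratios of reads between a pair of genes, which were chosen after the values were seen.

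Cd3d to Cd3e in NPYtet 5 was 3.62, and the nearest other NPYtet library was at 0.504. Cd3g to Cd3e in the same library was 9.44, with the nearest at 1.95. In WT 2, Cd247 to Cd3e was 1.04, with the nearest WT library at 0.761. Also in WT 2, Foxp3 to Cd4 was 1.18, with the nearest at 0.373. Both libraries are among the 3 that stand apart, with the fewest genes detected, and the part of this in the ratios was not tested.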

How the results depend on the processing

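No alternative called any of the 10 T cell genes by genotype (0 in each of 20). For 19 genes followed over 378 pairs of gene and alternative, 337 kept direction and side of the threshold, 40 changed sign without passing it, and Npy lost its call without the 3 libraries at a log2 fold change of 7.45 there (adjusted p 0.133, edgeR), within 7.09 to 8.49 over all its alternatives. The cause was not tested, but fewer samples entered that fit.

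Genes called by genotype, 1 in the main edgeR fit, were 409 with no filter, 35 with DESeq2, 2 with limma voom and 0 without the 3 libraries (1 to 8 leaving out 1 library, the highest without WT 3). Genes called by sex, 448, were 217 with total counts, 2380 with no filter, 2316 with DESeq2, 5590 with limma voom, 21 with the hair score and 949 without the 3 libraries (58 without WT 3 to 2725 without WT 4). T cell genes called by sex were 1 with DESeq2 and 4 with limma voom (0 to 0 leaving out 1 library). Interaction calls, 0, were 217 with no filter and 3 with DESeq2 (0 to 108, the highest without WT 3).

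Sign changes by setting were as follows, as log2 fold changes. With DESeq2, Cd3e was 0.0026 and Cd4 0.0040. With limma voom, Cd3e was 0.33, Cd4 0.0040, Foxp3 0.039, Trbc1 0.0080, Ctla4 0.051 and Skint1 -0.051. With no sex term, Cd3e was 0.38, Cd4 0.22, Trbc1 0.16 and Ctla4 0.26. Cd247 was -0.046 with total counts and -0.26 with the hair score. Without the 3 libraries, Cd3e was 0.22, Trdv4 -0.071, Cd4 0.076, Foxp3 0.27, Trbc1 0.028, Ctla4 0.18, Skint1 -0.058 and the ratio of Foxp3 to Cd3e 0.107 (exact permutation p 0.829). Leaving out 1 library gave -0.34 to 0.28 for Cd3e, -0.21 to 0.19 for Cd4, -0.25 to 0.082 for Trbc1, -0.21 to 0.14 for Cd247 and -0.78 to 0.28 for Ctla4.

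With the replicate number as a block, 0 genes were called by sex, where only number 4 holds both labelled sexes. By genotype, Cd3e was 0.038, Cd4 0.15 and Trbc1 0.069. Correlations did not show the numbers to pair the mice, and cannot settle it. Same-numbered libraries correlated at -0.256 to 0.644, and 0 WT libraries correlated best with their own number.

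Cd8a and Foxp3 rest on few reads, below the filter at a minimum count of 50. Reads of Trbc2 and Trbc1 cannot be fully told apart.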
